A study of Mus musculus with 13 samples.

Results

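The genes described here are the parts of the mitotic machinery: the kinases and cyclins that start mitosis, the spindle checkpoint, the kinetochore, condensin, the mitotic kinesins and the proteins of the spindle midzone. A list of 58 such genes was matched by symbol to the probe sets of a mouse expression array that carry 1 gene symbol only, and each gene was read by the brightest of its probe sets. In this way 56 of the 58 genes were measured, among 17097 genes on the array. Sgol1 was found under its current symbol Sgo1, and Ccnb1 and Nuf2 had no probe set that named them alone. The study profiled total RNA of squamous skin tumours, 7 samples of G9a cKO and 6 of G9a WT genotype, on 1 array each. In both groups DMBA, a carcinogen, and TPA, a tumour promoter, had been applied to the shaved back skin from 8 weeks of age, at first once weekly for 6 weeks and then with TPA alone for up to 20 weeks. G9a is a histone methyltransferase encoded by Ehmt2, and cKO stands for conditional knockout. The sources used here do not give the strain, the driver of the deletion or the cells it reaches.

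Cells enter mitosis when cyclin B and its kinase Cdk1 become active, with Polo-like and Aurora kinases acting beside them to condense the chromosomes, separate the centrosomes and build the spindle. Kinetochores hold the chromosomes on spindle microtubules, and the spindle checkpoint delays anaphase until each of them is attached. Most of these genes are transcribed mainly in late S phase, G2 and mitosis, so that in a dividing tissue their transcripts come from the cycling cells. In whole tumour RNA, fewer cycling cells and less RNA per cycling cell cannot be told apart.

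All values are log2 levels as deposited, and a difference is the cKO mean minus the WT mean on that scale. The array medians lay between 5.12 and 5.14 in cKO and between 5.09 and 5.14 in WT tumours. The SD over probe sets was 1.83 to 1.88 on cKO arrays and 1.91 to 1.94 on WT arrays, so the WT arrays had the wider distribution. Of the 2 Ehmt2 probe sets, probe set 2 averaged 6.01 ± 0.10 in cKO (SD, n = 7) and 8.33 ± 0.19 in WT tumours (SD, n = 6), with an exact two-sided permutation p of 0.000583, the smallest that 1716 splits allow. Probe set 1 of Ehmt2 differed by 0.13 (exact permutation p = 0.131), and the sources used here do not say where either lies relative to the deleted part. Keratinocyte marker genes were high in both groups, with a summed linear level of 17473 to 21600 in cKO and 17885 to 19313 in WT tumours. Arrays that followed one another within a group in the deposit deviated from their group mean in opposite directions (r of -0.956 to -0.880 over genes in 6 pairs, with cKO replicate 1 unpaired), and no label records a reason. Differences were therefore tested by limma in a first fit of the groups and a second fit with a term for each such pair. The words rose and fell are kept for genes whose adjusted p was under 0.05 in both. Each pair lies within 1 group, so the second fit leaves every difference unchanged and takes its error from the spread within pairs only. It does not remove the neighbour pattern, and cKO replicate 1 adds nothing to that spread. The labels do not say that each tumour came from its own mouse. The p-values therefore measure only the spread between these samples, or within their pairs in the second fit. The number of arrays limits the precision.

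In cKO tumours the mitotic genes did not move as a block. The microtubule depolymerase Kif2c, the chromokinesin Kif22, securin (Pttg1) and the checkpoint kinase Ttk rose by 1.35-fold to 1.57-fold, and the centriole kinase Plk4 fell by 1.48-fold. Of 8 core genes of mitosis and proliferation, Mki67, Cdk1, Aurkb, Bub1b and Ndc80 passed neither fit. Plk1 was higher and Top2a and Cenpa were lower in the fit of the groups only. In the fit of the groups, 8 of the 56 genes were higher and 7 lower, 26.8% in all. Over all genes 25.7% were higher and 20.1% lower in the same fit. In both fits together 5 of the 56 were higher and 1 was lower, against 14.4% and 10.3% of all genes. The cKO and WT arrays did not overlap for 3 mitotic genes with the cKO tumours above, against 14.1% of all genes, and for 0 with the cKO tumours below, against 8.86%. Each of these shares lay below that over all genes for the array. None of the 56 differed by 2-fold or more on its brightest probe set, and of the 44 further probe sets 1 did (Tpx2 probe set 2, 2.03-fold lower).

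Differences of the 56 genes ran from -0.62 to 0.65 with a median of -0.05, beside a median of 0.02 over all genes, and 25 were positive and 31 negative. The mitotic genes were not nearer to 0 than other genes. Their median absolute difference was 0.20, as it was for the 9139 genes between log2 levels of 4.90 and 8.73, the range that holds most mitotic genes. Their spread was larger: the median SE of a difference was 0.128 for the mitotic genes and 0.0856 for the genes of like level. Among those genes of like level 46.0% passed the test of the groups. The nonspecific control probe sets of the array, which match no transcript, had differences between -0.307 and 0.082. The 18 hybridisation control probe sets had differences between 0.057 and 0.493, so all of them were higher on cKO arrays. The part of that offset in the higher mitotic genes was not tested. Of the 56 mitotic genes 38 differed by at most 0.307 in either direction, the largest size among the nonspecific controls. Of the 15 that passed the fit of the groups 14 exceeded that size. On the positive side the nonspecific controls reached only 0.082.

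**Figure D1:**
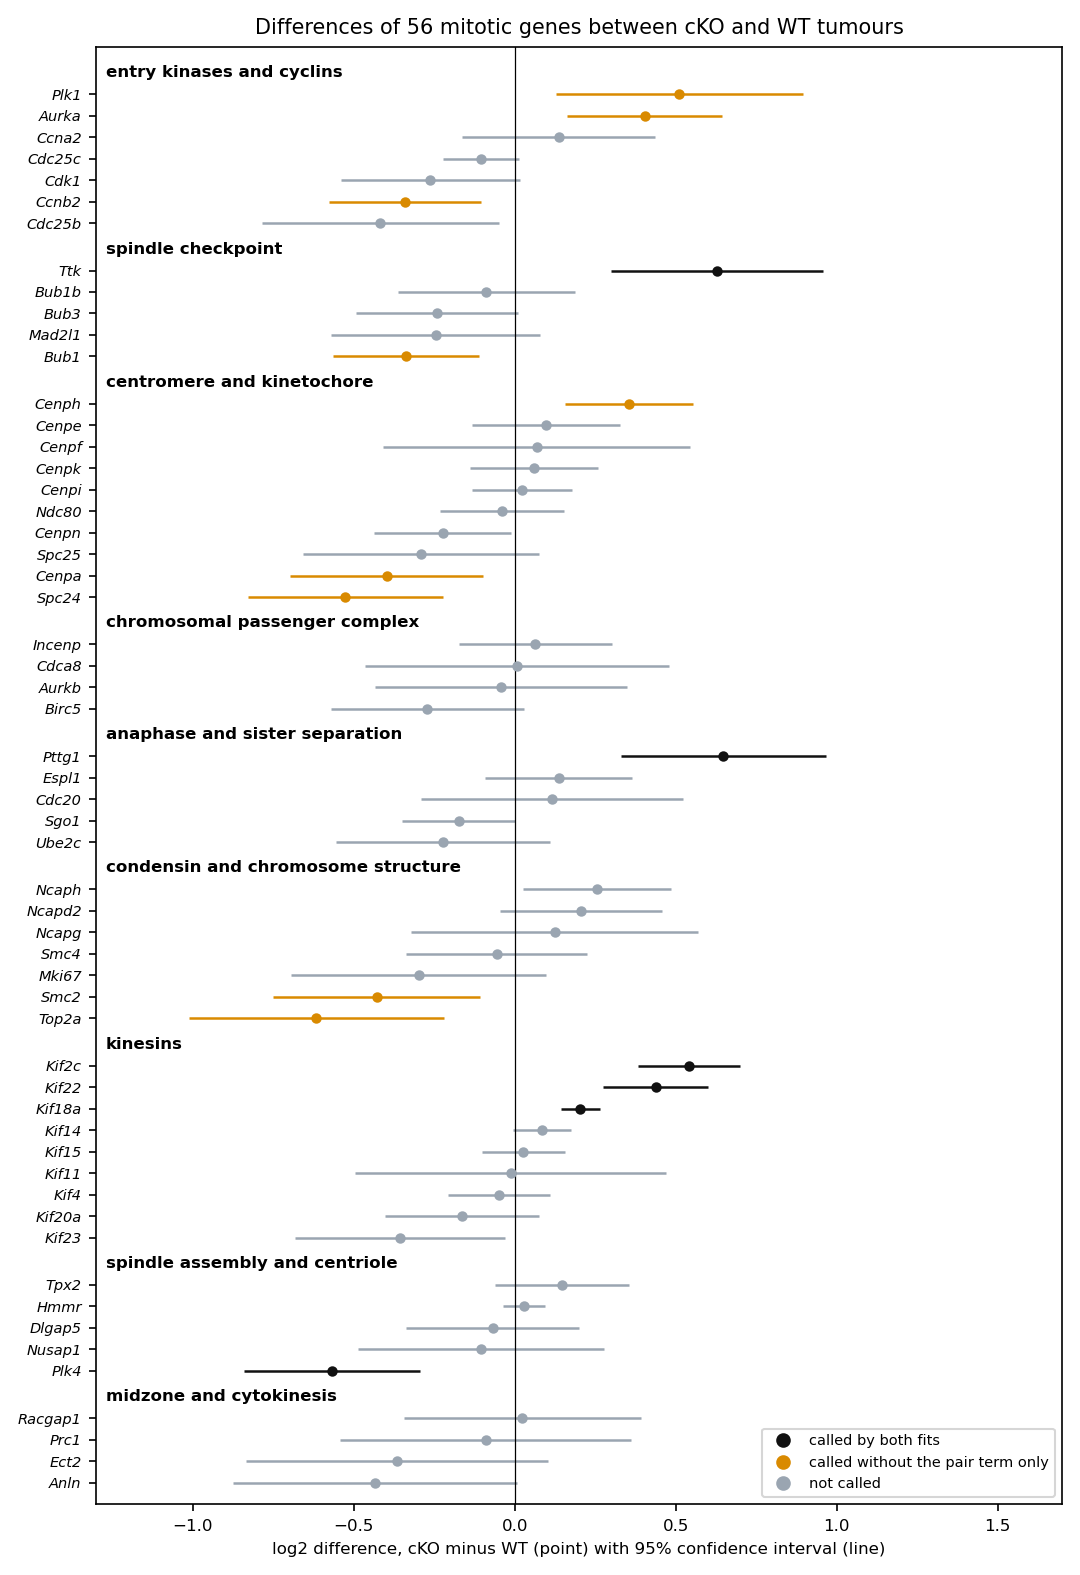
Differences between cKO and WT tumours (log2, horizontal axis) for the 56 measured genes, ordered by role, with 95% confidence intervals from limma; colours mark genes that passed in both fits, in the fit of the groups alone, or in neither. Genes to the right of 0 were higher in cKO tumours; the points run from -0.62 (Top2a) to 0.65 (Pttg1), and higher and lower genes stand side by side within most roles.

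Genes that start mitosis differed in both directions. Of 7 measured kinases, cyclins and phosphatases of this step, 2 were higher and 1 was lower in the fit of the groups, and 0 passed in both fits. Plk1, the Polo-like kinase of centrosome maturation and spindle assembly, had a lowest, median and highest level of 7.63, 7.91 and 8.33 in cKO and of 6.89, 7.40 and 8.05 in WT tumours, a difference of 0.51 ± 0.18 (SE; limma adjusted p = 0.0309, and 0.125 with the pair term). The groups overlapped, and without any of 6 single arrays (WT replicates 4, 6 and 9, cKO replicates 2, 6 and 9) the adjusted p exceeded the threshold, reaching 0.0691. Aurka, the Aurora kinase of the spindle poles, differed by 0.40 (adjusted p = 0.00993, and 0.0593 with the pair term). With the pair term after quantile normalization Aurka passed, with an adjusted p of 0.0276. Ccnb2, a B-type cyclin, differed the other way, by -0.34 (adjusted p = 0.0212, and 0.0874 with the pair term).

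Cdk1, the kinase that drives entry into mitosis, read 8.09, 8.45 and 8.77 (lowest, median, highest) in cKO tumours, against 8.45, 8.72 and 9.11 in WT tumours. The difference of -0.26 had a 95% interval from -0.54 to 0.02 (limma adjusted p = 0.112). Ccna2, the cyclin of S phase and G2, differed by 0.14, the phosphatase gene Cdc25b by -0.42 (adjusted p = 0.0603) and Cdc25c by -0.10. The second Ccna2 probe set differed the other way, by -0.51 (limma adjusted p = 0.0507). The 2 groups overlapped for every measured gene of this step.

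Of 5 spindle checkpoint genes 1 rose in cKO tumours. Ttk encodes the kinase Mps1, which recruits the other checkpoint proteins to unattached kinetochores. It read 6.70, 7.02 and 7.39 in cKO and 5.99, 6.38 and 6.84 in WT tumours, a difference of 0.63 ± 0.15 (SE; limma adjusted p = 0.00474, and 0.0494 with the pair term). The overlap came from the higher WT arrays, replicates 7 and 8, and the lower cKO arrays, replicates 3 and 8. A second Ttk probe set went against the first, at -0.16 (adjusted p = 0.00132, and 0.0378 with the pair term), but both its group means were under 4.29, the upper quartile of the control probe sets. Bub1, a checkpoint kinase at the kinetochore, differed by -0.34 (adjusted p = 0.0182, and 0.0798 with the pair term). Its second probe set, also under that control level, differed by -0.36 and passed in both fits (limma adjusted p = 0.000202, and 0.0122 with the pair term).

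The other checkpoint genes did not pass on their brightest probe sets. Bub1b, which encodes the BubR1 part of the inhibitor of anaphase, read 6.96, 7.23 and 7.51 in cKO and 6.91, 7.45 and 7.65 in WT tumours, with a difference of -0.09 (95% interval -0.36 to 0.19, adjusted p = 0.598). That sign was not kept: it was 0.03 after quantile normalization and 0.15 on both other probe sets of Bub1b, of which number 3 passed in the fit of the groups (adjusted p = 0.00343). Mad2l1, the Mad2 gene, and Bub3 differed by -0.25 and -0.24 (adjusted p = 0.199 and 0.108). Bub3 probe set 3, under that control level, differed by -0.32 and passed in both fits. Bub3 probe sets 2 and 4 differed by 0.25 and 0.01 and did not pass.

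Among 10 measured centromere and kinetochore genes, 1 was higher and 2 were lower in the fit of the groups, and 0 passed in both fits. Cenpa, the histone H3 variant that marks centromeres, read 7.62, 7.83 and 8.16 in cKO and 7.75, 8.30 and 8.56 in WT tumours, a difference of -0.40 ± 0.14 (SE; limma adjusted p = 0.0322, and 0.124 with the pair term). It lost the call without any of 7 single arrays (WT replicates 2, 7 and 8, cKO replicates 1, 2, 5 and 8), where the adjusted p reached 0.0722. The second Cenpa probe set differed by 0.09. Spc24, a subunit of the Ndc80 complex that binds microtubules, differed by -0.53 (adjusted p = 0.00828, and 0.0677 with the pair term). Ndc80 itself read 5.83, 6.04 and 6.15 in cKO and 5.74, 6.08 and 6.25 in WT tumours, so that subunits of the same complex stood at -0.53 and -0.04 (Ndc80 95% interval -0.23 to 0.15). Spc25, the partner of Spc24, differed by -0.29 (adjusted p = 0.178). Cenph, an inner kinetochore subunit, was higher by 0.35 (adjusted p = 0.00729, and 0.0617 with the pair term). The motor Cenpe and the fibrous corona protein gene Cenpf differed by 0.10 and 0.07, and Cenpi, Cenpk and Cenpn lay between -0.22 and 0.06.

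The chromosomal passenger complex, which corrects faulty attachments, had 0 of 4 genes past the test. Aurkb, its kinase, read 6.50, 7.08 and 7.45 in cKO and 6.58, 7.14 and 7.58 in WT tumours, a difference of -0.04 with an interval from -0.43 to 0.35. The interval is wide, and Aurkb spread over about 1 log2 unit within each group. The second Aurkb probe set differed by -0.34 and did not pass (limma adjusted p = 0.267). Survivin (Birc5) differed by -0.27, and the scaffold gene Incenp and borealin (Cdca8) by 0.06 and 0.01. Single further probe sets of 2 of these genes did pass in both fits, in opposite directions: Cdca8 probe set 2 at -0.49 and Incenp probe set 3 at 0.32.

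Of 5 genes of anaphase and sister separation, Pttg1 rose. It encodes securin, the inhibitor of separase, and read 9.27, 9.84 and 10.15 in cKO and 8.80, 9.08 and 9.46 in WT tumours, a difference of 0.65 ± 0.15 (SE; limma adjusted p = 0.00309, and 0.0383 with the pair term). Of the 7 cKO arrays only replicate 3 lay inside the WT range. Both other Pttg1 probe sets differed in the same direction, by 0.41 and 0.44, and passed without the pair term only. Espl1, the separase gene, differed by 0.14 and shugoshin (Sgo1) by -0.17 at a level near the controls. The activator of the anaphase-promoting complex Cdc20 and its ubiquitin-conjugating enzyme Ube2c differed by 0.12 and -0.22. None of these 4 passed the test.

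Chromosome structure genes included the most negative difference. Top2a, the topoisomerase that untangles sister chromatids, read 5.39, 6.06 and 6.48 in cKO and 6.13, 6.70 and 6.92 in WT tumours, a difference of -0.62 ± 0.18 (SE; limma adjusted p = 0.0149, and 0.0874 with the pair term). Top2a probe sets 2 and 3 differed by -0.07 and -0.04 and did not pass (limma adjusted p = 0.0690 and 0.244). Both were dim, with WT means of 4.48 and 4.24. Smc2, an ATPase subunit of condensin, differed by -0.43 (adjusted p = 0.0307) and lost the call without any of 7 single arrays (WT replicates 2, 6, 7 and 8, cKO replicates 1, 3 and 8), with an adjusted p of up to 0.0693. Smc2 probe sets 2, 3 and 4 differed by -0.71, 0.14 and -0.24, and number 2 passed in the fit of the groups only (limma adjusted p = 0.0126). The partner of Smc2 in condensin is Smc4. Smc4 differed by -0.06 on its brightest probe set, while its probe sets 2 and 3 differed by -0.50 and -0.75, and the last of these passed in both fits. The condensin I subunits Ncaph, Ncapd2 and Ncapg differed by 0.26, 0.21 and 0.12 and did not pass. Mki67, the proliferation marker Ki-67, read 7.75, 8.41 and 8.83 in cKO and 8.17, 8.74 and 9.11 in WT tumours. Its difference of -0.30 (95% interval -0.70 to 0.10, adjusted p = 0.200) was smaller than the range of either group.

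Kinesins held 3 of the 6 genes that passed in both fits, all higher. These are 33.3% of the 9 kinesins, beside 24.7% of all genes, and they include Kif18a, which reads below the control quartile. Kif2c, which takes tubulin off microtubule ends at kinetochores, read 6.94, 6.99 and 7.05 in cKO and 6.23, 6.48 and 6.64 in WT tumours, a difference of 0.54 ± 0.07 (SE; limma adjusted p = 8.33e-05, and 0.00722 with the pair term). The groups did not overlap, and the cKO arrays lay within about 0.1 of each other. Kif22, a motor on chromosome arms, read 6.68, 6.86 and 7.04 in cKO and 6.23, 6.41 and 6.57 in WT tumours, a difference of 0.44 ± 0.07 (SE; adjusted p = 0.00048, and 0.0168 with the pair term), again without overlap. Its second probe set differed by 0.50 and passed in both fits. Kif18a, which dampens chromosome movements, was also apart (3.61, 3.66 and 3.75 in cKO, against 3.44, 3.46 and 3.49 in WT tumours). Its level lies under 4.29, the upper quartile of the nonspecific controls, in both groups, so no fold is given for its difference of 0.20.

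The other 6 kinesins did not pass on their brightest probe sets. Kif11, the motor that pushes spindle poles apart, differed by -0.01 and spread from 6.29 to 7.48 in cKO and from 6.27 to 7.48 in WT tumours. Kif4, Kif14, Kif15 and Kif20a lay between -0.16 and 0.08. Kif23, the midzone kinesin, differed by -0.36 (adjusted p = 0.0701), while its second probe set, dimmer than the control quartile, was higher by 0.23 and passed in both fits (adjusted p = 0.000272, and 0.0168 with the pair term).

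Among 5 genes of spindle assembly and centrioles, Plk4 fell. Plk4 is the kinase that starts centriole duplication, and it read 6.28, 6.77 and 7.12 in cKO and 6.96, 7.41 and 7.48 in WT tumours, a difference of -0.57 ± 0.13 (SE; limma adjusted p = 0.00285, and 0.0297 with the pair term). Of the 6 WT arrays 5 lay above every cKO array, and WT replicate 4 lay below cKO replicates 5 and 9. The call with the pair term was lost after quantile normalization (adjusted p = 0.0621), and the second Plk4 probe set, at -0.36, passed in the fit of the groups only. Tpx2, which activates Aurora A on the spindle, differed by 0.15 on its brightest probe set (adjusted p = 0.232) and by -1.02 on the other, which passed in both fits. Hmmr, a spindle pole protein, differed by 0.03, and of its further probe sets number 3 was lower by 0.33 in the fit of the groups while number 5 was higher by 0.31 in both. Nusap1 and Dlgap5, both microtubule-bundling proteins, differed by -0.11 and -0.07.

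Genes of the midzone and of cytokinesis had 0 of 4 past the test. The contractile ring protein anillin (Anln) differed by -0.43 (adjusted p = 0.0993) and the exchange factor Ect2 by -0.36. Prc1, which crosslinks midzone microtubules, and Racgap1 differed by -0.09 and 0.02. Ect2, Anln and Prc1 each spread over more than 0.7 within each group.

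**Figure D2:**
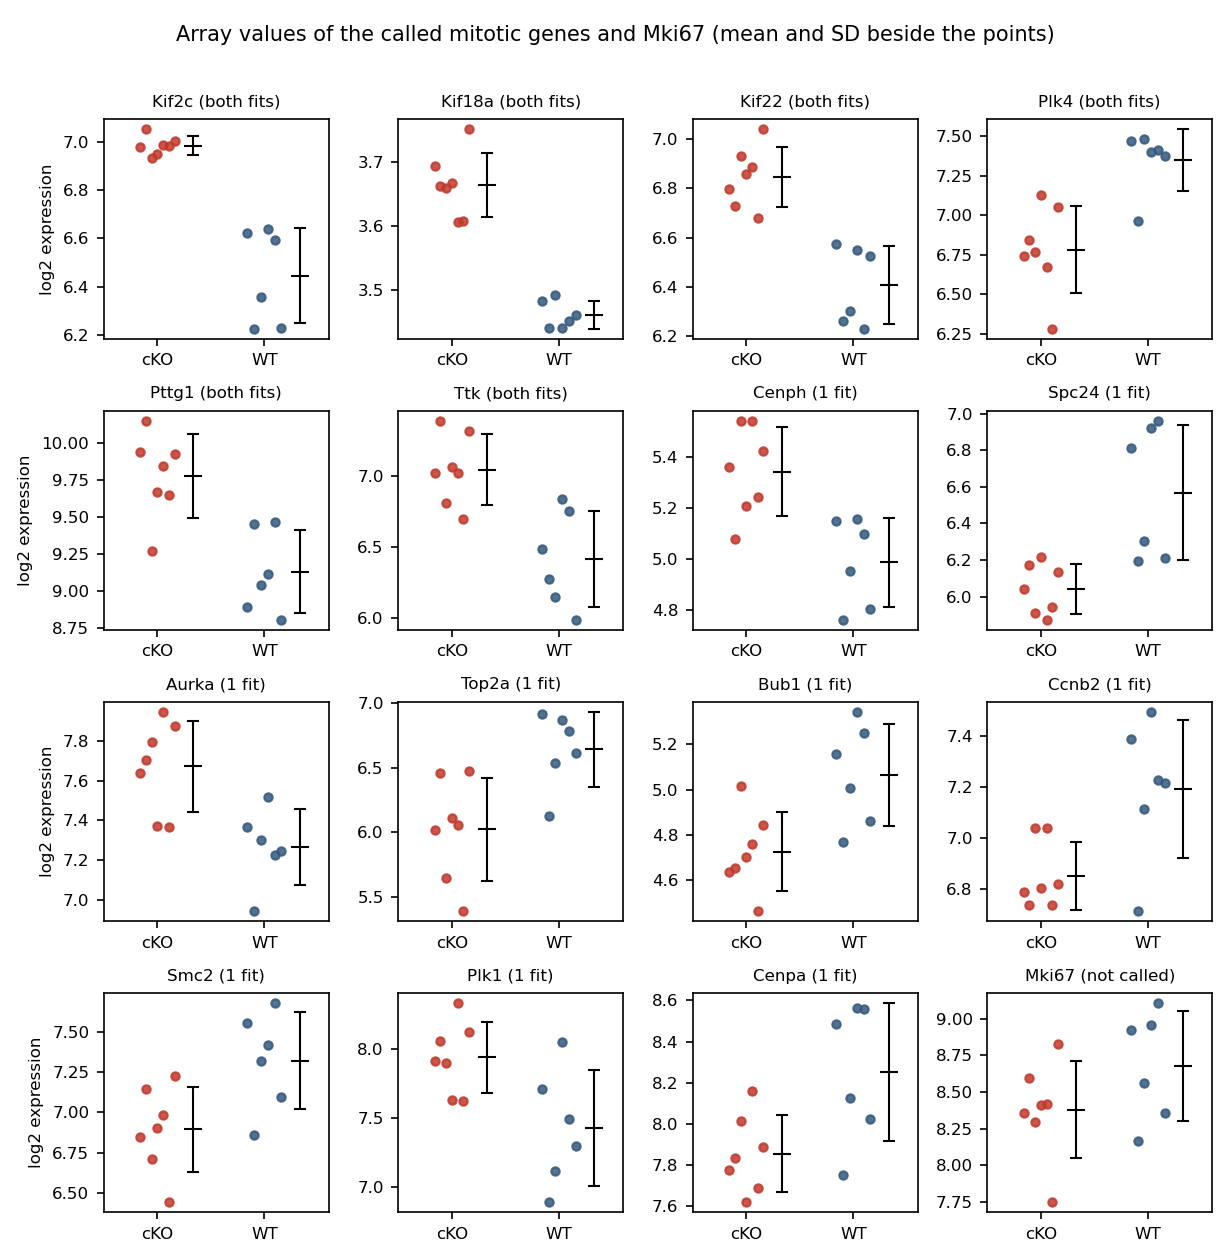
Log2 levels on each array (points, vertical axes that differ by panel and do not start at 0), with the group mean and SD beside them, for the 15 genes that passed in both fits or in the fit of the groups alone (1 fit) and for Mki67, cKO tumours left (n = 7) and WT tumours right (n = 6). Kif2c, Kif22 and Kif18a show no overlap, Ttk and Pttg1 overlap at the edges, and Plk4 is the gene of both fits with lower cKO levels.

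Much of the spread within groups was shared by these genes. Each array's deviation from its group mean was taken for every gene, so that the group difference is removed. Over the 13 arrays the median correlation between 2 mitotic genes was 0.57 (range -0.70 to 0.98) and the mean 0.514, against a mean of 0.00574 over all pairs of genes. Against the mean of the other mitotic genes, the median r was 0.755, and over all genes it was 0.0359. An r over 0.8 was found for 22 of 56 mitotic genes (39.3%), against 170 of 17097 genes (0.994%). These correlations are descriptions over 13 arrays that share neighbours of opposite sign, and they carry no test. The median r was 0.802 within the cKO arrays and 0.855 within the WT arrays. Without WT replicate 4 and cKO replicate 8, the arrays farthest from the rest, it was 0.628 over 11 arrays, with 21 genes over 0.8.

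Ccna2 and Mki67 followed the common pattern most closely, each with r of 0.98. Ncapd2, Ncapg, Bub1b and Racgap1 came next at 0.96, and Cdk1 had 0.95. The genes with the lowest r included the phosphatase gene Cdc25b (0.05), Hmmr (0.10), Pttg1 (0.24) and Kif15 (0.31). Of the 6 genes that passed in both fits, only Ttk had r over 0.8 (0.84), beside 0.78 for Kif2c, 0.67 for Plk4, 0.41 for Kif22, 0.37 for Kif18a and 0.24 for Pttg1. Among the 22 genes over 0.8, 2 were higher and 2 lower in the fit of the groups, and among the other 34 genes 6 were higher and 5 lower. The median SE of a difference was 0.153 in the first set and 0.109 in the second, so a difference of a given size was measured less precisely in the genes that varied together.

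The level of the whole set varied between tumours of 1 genotype by more than it differed between genotypes. The median deviation of the 56 genes from their mean over arrays ran from -0.34 (replicate 8) to 0.19 (replicate 9) in cKO tumours, with a mean of -0.02 ± 0.17 (SD, n = 7). In WT tumours it ran from -0.28 (replicate 4) to 0.27 (replicate 7), with a mean of 0.03 ± 0.21 (SD, n = 6). On cKO replicate 8 only 6 of the 56 genes stood above their own mean, and on WT replicate 4 only 3 did. On cKO replicate 9 and WT replicate 2 the numbers were 47 and 45. By this count the highest and the lowest array of each group were neighbours, and the part of the neighbour pattern in this spread was not tested.

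**Figure D3:**
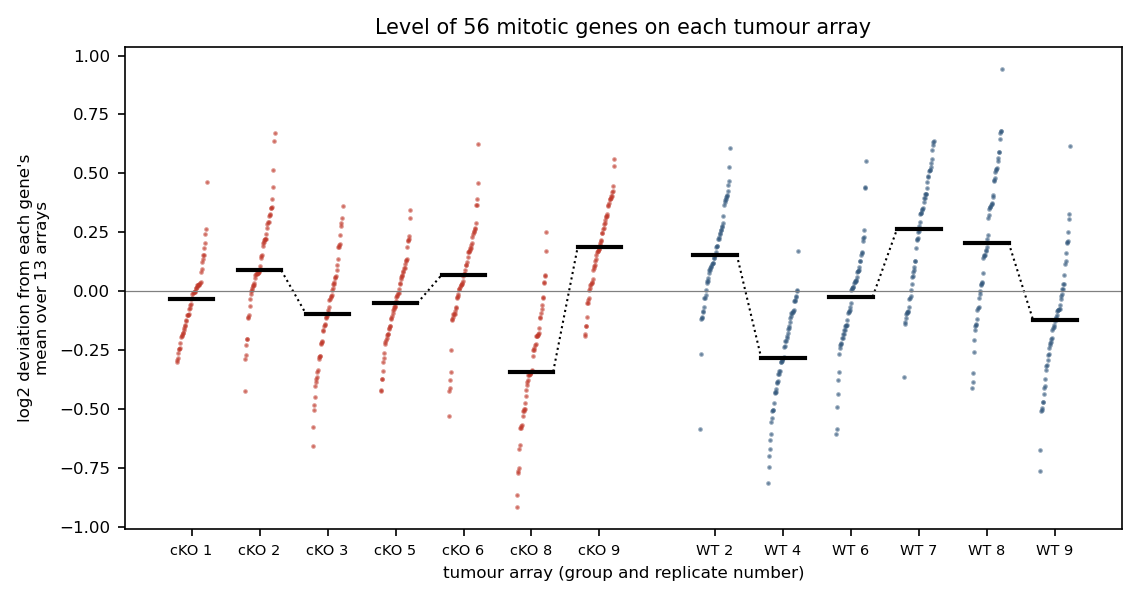
Deviation of each mitotic gene from its mean over the 13 arrays (log2, vertical axis), 1 point a gene, with the median of each array as a bar and dotted lines joining neighbouring arrays, cKO arrays left and WT arrays right. Medians run from -0.34 to 0.19 over cKO arrays and from -0.28 to 0.27 over WT arrays, with a low array in each group (cKO replicate 8, WT replicate 4).

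Promoters of these genes were set beside the expression values, since mitotic genes are known to share promoter elements: CCAAT boxes, bound by NF-Y, and the cell cycle homology region, whose core TTTGAA is bound by the DREAM and MuvB complexes. The sequences below are 250 bases before to 50 bases after the start site, from RefSeq on GRCm38.p6, printed 5′ to 3′ on the gene's strand, with CCAAT and TTTGAA, read on either strand, in capitals. Cdk1 and Ccnb2 are shown as promoters with several copies of both motifs, Plk1, Ttk and Kif22 for genes with higher cKO values, and Plk4 for the gene that fell. Their windows are chr10:69352863-69353162 (minus strand) for Cdk1, chr9:70421505-70421804 (minus) for Ccnb2, chr7:122159185-122159484 (plus) for Plk1, chr9:83834439-83834738 (plus) for Ttk, chr7:127042371-127042670 (minus) for Kif22 and chr3:40799701-40800000 (plus) for Plk4.
Cdk1: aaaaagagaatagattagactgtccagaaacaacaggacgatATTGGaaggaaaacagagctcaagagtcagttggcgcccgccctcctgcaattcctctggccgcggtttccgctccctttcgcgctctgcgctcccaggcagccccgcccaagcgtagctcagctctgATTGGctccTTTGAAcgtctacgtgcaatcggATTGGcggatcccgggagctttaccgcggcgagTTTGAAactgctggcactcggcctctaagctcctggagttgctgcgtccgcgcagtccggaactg
Ccnb2: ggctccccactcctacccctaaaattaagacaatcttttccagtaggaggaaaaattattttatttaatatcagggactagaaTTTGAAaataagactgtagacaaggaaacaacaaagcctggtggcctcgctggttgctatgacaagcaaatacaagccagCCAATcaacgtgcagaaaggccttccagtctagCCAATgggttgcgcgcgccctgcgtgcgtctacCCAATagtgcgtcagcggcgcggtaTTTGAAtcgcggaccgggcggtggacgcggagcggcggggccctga
Plk1: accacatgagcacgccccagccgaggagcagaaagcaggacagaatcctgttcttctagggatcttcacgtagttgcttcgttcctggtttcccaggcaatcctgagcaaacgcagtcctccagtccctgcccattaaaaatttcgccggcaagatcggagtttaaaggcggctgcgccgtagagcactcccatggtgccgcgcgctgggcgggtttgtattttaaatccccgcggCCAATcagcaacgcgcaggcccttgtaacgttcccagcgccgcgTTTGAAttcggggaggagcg
Ttk: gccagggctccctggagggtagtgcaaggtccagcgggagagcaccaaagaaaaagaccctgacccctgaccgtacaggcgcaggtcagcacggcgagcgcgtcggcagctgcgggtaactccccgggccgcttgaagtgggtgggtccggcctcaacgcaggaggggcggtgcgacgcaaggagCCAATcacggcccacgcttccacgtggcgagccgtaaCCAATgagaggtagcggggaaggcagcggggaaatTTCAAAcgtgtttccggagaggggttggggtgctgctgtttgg
Kif22: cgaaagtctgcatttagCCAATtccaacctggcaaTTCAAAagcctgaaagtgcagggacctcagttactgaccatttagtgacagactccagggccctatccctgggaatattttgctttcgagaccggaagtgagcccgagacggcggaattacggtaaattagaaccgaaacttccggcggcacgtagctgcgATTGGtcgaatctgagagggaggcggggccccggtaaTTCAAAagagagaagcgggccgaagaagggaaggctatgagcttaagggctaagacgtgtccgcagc
Plk4: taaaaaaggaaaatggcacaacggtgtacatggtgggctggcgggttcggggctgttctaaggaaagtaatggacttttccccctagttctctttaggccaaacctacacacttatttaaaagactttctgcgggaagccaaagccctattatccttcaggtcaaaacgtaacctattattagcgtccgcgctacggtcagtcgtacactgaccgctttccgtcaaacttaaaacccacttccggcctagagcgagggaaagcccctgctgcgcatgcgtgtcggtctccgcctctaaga

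The promoter table held 54 windows for 49 of the 58 genes, and 9 genes had none (Aurkb, Ccna2, Cdc25c, Dlgap5, Incenp, Kif20a, Smc4, Spc24 and Tpx2). CCAAT occurred in 42 of the 54 windows (77.8%), against 37.4% of all 32851 windows of the same length in the table. TTTGAA occurred in 36 (66.7%), against 17.9%, and both in 32 (59.3%), against 6.95%. Neither motif was found in 8 windows (14.8%), against 51.7% of all. The motifs overlapped each other in 1 of the 54 windows. Positions count from the start site and give the leftmost base of a motif as printed. Cdk1 had CCAAT boxes at -208, -80 and -48 and TTTGAA at -71 and -15. Ccnb2 had CCAAT boxes at -87, -54 and -21 and TTTGAA at -167 and 5. The genes that passed in both fits were mixed in this respect: Ttk and Kif22 held both motifs, Kif2c TTTGAA alone, and Plk4, Pttg1 and Kif18a neither. The start sites of the Kif2c, Sgo1, Kif14 and Pttg1 windows lie 3852, 2016, 1547 and 1482 bases from the outer end of the gene, and a match is a description of letters and not a bound site.

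Of the 56 genes 31 had several probe sets, which gave 44 further readings. Of these, 8 were higher and 11 lower in the fit of the groups, and 5 and 6 in both fits. For 15 of the 31 genes the probe sets differed in sign, and for Hmmr and Ttk they were called in opposite directions. The further probe sets were often dim, and 13 of the 44 were under that control quartile in both groups. An r over 0.5 with the mean of the other mitotic genes was found for 47 of 56 brightest probe sets and for 23 of 44 further ones. Tpx2 shows how far readings of 1 gene could stand apart: probe set 2 read 4.36, 4.64 and 5.06 in cKO and 5.48, 5.66 and 6.03 in WT tumours, with r of 0.20, while probe set 1 differed by 0.15 with r of 0.69. Smc4 probe set 3 read 5.95, 6.40 and 6.72 in cKO and 6.83, 7.09 and 7.55 in WT tumours, with r of 0.77. The sources used here do not say which transcript ends or isoforms these probe sets read.

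**Figure D4:**
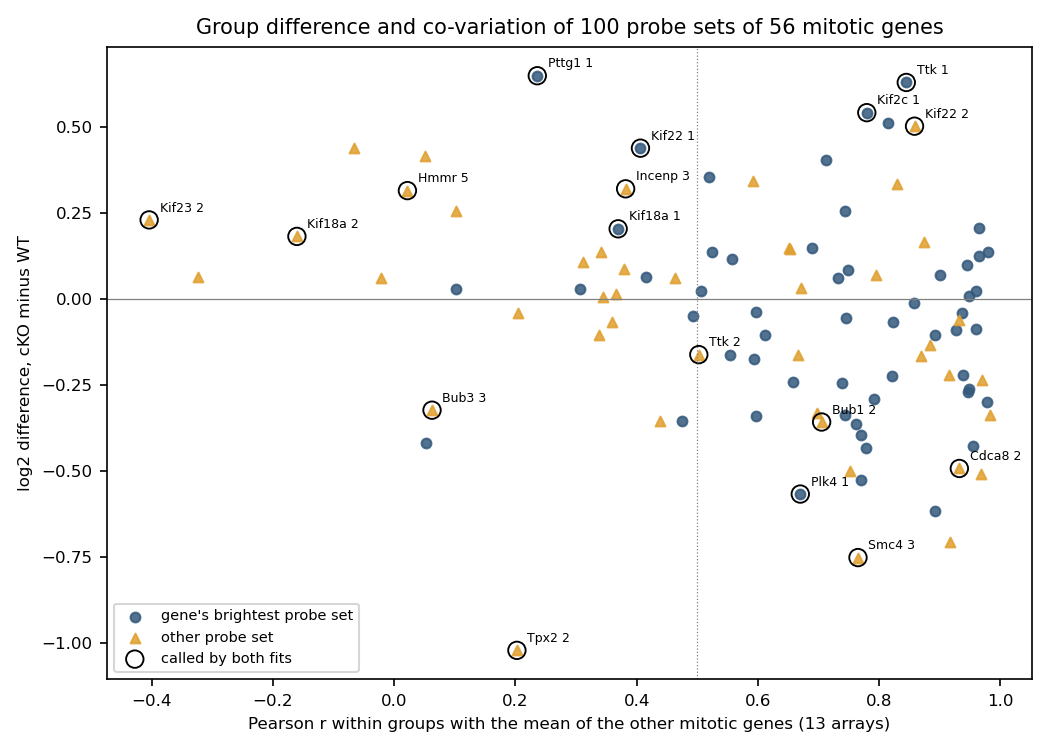
Differences between cKO and WT tumours (log2, vertical axis) of every probe set of the measured genes against its correlation with the mean of the other mitotic genes within groups over 13 arrays (horizontal axis); circles are the brightest probe set of a gene, triangles the others, and rings mark those that passed in both fits. Brightest probe sets lie mostly to the right of 0.5 (47 of 56), while further probe sets spread over the whole axis, with Tpx2 probe set 2 the lowest at -1.02.

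Further lists of mitotic genes, of regulators of their transcription and of replication and G1/S genes held 169 symbols, with 158 measured. Of these 23 were higher and 45 lower in the fit of the groups, and 12 and 25 in both fits. These are 43.0% and 23.4% of the 158, near the 45.8% and 24.7% of all genes. By direction 14.6% were higher and 28.5% lower in the fit of the groups, beside 25.7% and 20.1% of all genes. Of the 45 lower genes 13 were on the replication and G1/S list and 11 on the list of regulators. Of 54 other mitotic genes 10 were higher and 9 lower, and 4 each in both fits. The kinetochore protein Ska1 fell by 0.26, the phosphatase Cdkn3 by 0.77 and Cdca4 by 0.28, and the microtubule-binding protein Gtse1 rose by 0.43. For each of these 4 the groups did not overlap. Outside the rule for naming genes, and chosen after their values were seen, the midbody gene Cep55 fell by 1.12 and Bora, an activator of Aurora A, rose by 0.84.

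The centromere scaffold genes that passed in both fits were all lower. Of 21 Mis12 complex and centromere network genes 2 were higher and 6 lower, with 0 and 4 in both fits. These are 38.1% and 19% of the 21, beside 45.8% and 24.7% of all genes. Mis12 fell by 0.62, reading 4.58 to 4.94 in cKO and 5.20 to 5.52 in WT tumours. Cenpp fell by 0.48, Pmf1, a further Mis12 complex subunit, by 0.42, and Cenpc1, the gene of the centromere protein CENP-C, by 0.45. Of 15 genes of the anaphase-promoting complex 3 were higher and 3 lower (1 and 2 in both fits): the activator Fzr1 rose by 0.28, and the subunits Anapc7 and Cdc26 fell by 0.21 and 0.32. Cohesin and condensin II had 3 of 14 genes higher and 3 lower (3 and 2 in both fits), among them Ncapd3, which rose by 0.46, and the cohesin subunit Rad21 and its release factor Wapl, which fell by 0.32 and 0.46. Esco2, a cohesin acetyltransferase, was higher by 0.27 at a level below the control quartile. The shares past the fit of the groups and past both fits were 40% and 20% for the anaphase-promoting complex. They were 42.9% and 35.7% for cohesin and condensin II.

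Most regulators of mitotic transcription on the list passed the fit of the groups. Of 20 measured regulators 4 were higher and 11 lower, and 3 and 7 in both fits. These are 75% and 50% of the 20, beside 45.8% and 24.7% of all genes. The pocket protein gene Rbl1 fell by 0.64, reading 5.41 to 5.66 in cKO and 5.95 to 6.34 in WT tumours (limma adjusted p = 1.43e-05, and 0.00249 with the pair term). Nfyb, a subunit of the CCAAT-binding factor NF-Y, fell by 0.38, and the MuvB subunits Lin54 and Rbbp4 fell by 0.83 and 0.32. Outside the naming rule, the other NF-Y subunits went opposite ways: Nfya rose by 0.44 (adjusted p = 0.000219, and 0.0117 with the pair term) and Nfyc fell by 0.33. Also outside it, Mybl2, a mitotic gene activator, rose by 0.72, and Foxm1 differed by -0.19 (adjusted p = 0.0527). Their r with the mitotic genes was -0.05 for Mybl2 and 0.61 for Foxm1, and the median over the regulators was 0.12.

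Replication genes were the nearest set in the cell cycle. Of 34 replication and G1/S genes 1 was higher and 13 lower, and 1 and 6 in both fits, with a median difference of -0.15. In the fit of the groups these are 2.94% higher and 38.2% lower, beside 25.7% and 20.1% of all genes. In both fits 20.6% passed, beside 24.7% of all genes. By smallest p, the flap endonuclease gene Fen1 fell by 0.46 at a level close to the controls and the licensing factor Cdt1 by 0.33. By the same rule, the cyclin Ccne2 was lower by 0.21 at a level below the control quartile. Rrm2, a ribonucleotide reductase subunit, fell by 0.62. The 1 higher gene, Rfc3 of the clamp loader, is named after its value was seen and rose by 0.34. The difference between this set and the mitotic genes was not tested. The median r with the mitotic genes was 0.50 for replication genes and 0.51 for the other mitotic genes.

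Fibroblast and endothelial markers were mostly higher in cKO tumours. The other marker lists, like the mitotic genes, had calls in both directions in the fit of the groups. In both fits the macrophage and dendritic calls and the keratinocyte call were all higher. Of the fibroblast and of the endothelial markers 70% passed the fit of the groups, beside 45.8% of all genes. The shares were 60% for macrophage and dendritic, 50% for T and B cell, 37.5% for muscle and 22.2% for keratinocyte markers. Of 10 fibroblast markers 7 rose in cKO tumours, with a summed linear level of 1039 to 2226 in cKO and 243 to 645 in WT tumours, and Col1a2, Pdgfra and Fap lay below the controls in both groups. Of 10 endothelial markers 7 were higher (6 in both fits), at 529 to 865 in cKO and 210 to 470 in WT tumours, with Tek below the controls. Of 10 macrophage and dendritic markers 4 were higher and 2 lower (3 and 0 in both fits). Their summed level was 426 to 732 in cKO and 314 to 369 in WT tumours, with Adgre1 below the controls. Of 8 T and B cell markers 3 were higher and 1 lower (2 and 1 in both fits). Their summed level was 290 to 308 in cKO and 267 to 290 in WT tumours, with Cd3e and Ms4a1 below the controls. Of 8 muscle markers 1 was higher and 2 lower (1 and 2 in both fits). Their summed level was 258 to 268 in cKO and 275 to 287 in WT tumours, with Myh4 below the controls. Of 9 keratinocyte markers 1 was higher and 1 lower (1 and 0 in both fits). The median r of these lists with the mitotic genes was 0.24 for fibroblast, -0.19 for endothelial, 0.25 for macrophage and 0.01 for keratinocyte markers. The part of cell makeup in the differences of the mitotic genes was not tested.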

How the data were processed

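Total RNA of 13 tumours was measured on arrays, and the samples were grouped by genotype from their titles (7 G9a cKO, 6 G9a WT). The deposited values are log2 levels per probe set after RMA, per the submitters' processing notes; the sources used here do not give its version. Of 45141 probe sets, 28898 carry 1 gene symbol and cover 17097 genes. The probe set of highest mean stood for a gene, with no filter on dim genes. R 4.3.3 and limma 3.58.1 gave the differences (lmFit, eBayes; two-sided, Benjamini-Hochberg over all genes, threshold 0.05), without and with a term for each pair of neighbouring arrays. The script was tested on simulated data with independent arrays, which lack the neighbour pattern of these arrays. Figures were drawn with matplotlib 3.10.9.

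The members, lists and alternatives were chosen with earlier results of these data known. Named with values were genes past both fits, the core markers (Mki67, Top2a, Cdk1, Plk1, Aurkb, Bub1b, Cenpa, Ndc80), genes with opposing probe sets, the rest by role, and up to 4 genes of each further list by smallest p among those past both fits. Alternatives were median centring, quantile normalization, filters on dim genes, the mean over or each of a gene's probe sets, array weights, a robust prior with a trend, a block for the replicate number, the pair term with quantile normalization, each array left out, and a stricter threshold. Same-numbered cKO and WT arrays had r of -0.298 to 0.0491 in their deviations from the group means, so the 4 shared numbers were not taken as pairs. Correlations between arrays were 0.968 to 0.995, and no 2 arrays held identical values.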

Additional observations from a re-analysis of the deposited data

Results flagged for a closer look

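In 4 of 112 combinations of gene and group, the lowest array stood apart from the others by Dixon's criterion at the 95% level, which chance alone meets in about 1 of 20 groups. Ncapd2, a condensin I subunit, read 7.84 on cKO replicate 8, where the next cKO array read 8.15. WT replicate 4 was the low array in the other three. It read 6.96 for the centriole kinase gene Plk4, with the next WT array at 7.37. It read 9.49 for the condensin gene Smc4, with the next at 9.72, and 6.46 for the spindle gene Tpx2, with the next at 6.81. The Plk4 difference passed the fit of the groups with each array left out.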

How the results depend on the processing

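With each array left out in turn, the mitotic genes called higher numbered 7 to 9 and those called lower 5 to 9, all genes called higher 3999 to 4301 and lower 3017 to 3475, and the median difference of the mitotic genes was -0.13 to 0.02; 12 of the 15 called genes kept their call every time, and Cenpa, Plk1 and Smc2 did not. The mitotic genes called lower were 7 as reported, 4 after quantile normalization, 17 with array weights, 2 at a threshold of 0.01, and 14 or 4 when any or all probe sets of a gene had to pass. With the pair term 5 were higher and 1 lower, and after quantile normalization 0 were lower. The share of higher calls was 53.3% for mitotic genes and 56% for all genes as reported, and 71.4% and 62.4% after quantile normalization; for all genes it was 41.5% above the median level. The replicate number, which no label gives as a pairing, was also used as a block. In that fit 3 mitotic genes were higher and 1 lower, beside 1668 and 1387 of all genes, and Aurkb differed by 0.033. All genes called, 4386 higher and 3444 lower as reported, were 2459 and 1769 with the pair term, 2588 and 1345 with it after quantile normalization, 1433 and 2019 above the median level, 2901 higher above the 25th percentile, and 2234 lower at a threshold of 0.01. Of genes near 0 the sign turned for Aurkb (0.055 after quantile normalization, with or without the pair term; -0.15 to 0.051 with 1 array left out), Bub1b (0.028 after quantile normalization with or without the pair term, 0.068 over its probe sets, 0.15 on probe sets 2 and 3) and Ndc80 (-0.10 to 0.0017 with 1 array left out). Other probe sets turned Cenpa (0.087), Smc2 (0.14 on probe set 3, beside -0.71 and -0.24 on probe sets 2 and 4) and Ttk (-0.16). The causes were not tested. With array weights Cdk1 passed at -0.29 (limma adjusted p = 0.0318). Signals near the nonspecific controls limit Kif18a, Sgo1 and the dim further probe sets.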
